A study of Mus musculus with 32 samples.

Results

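Carriers of glucose, monocarboxylates, amino acids and zinc were followed while mouse embryonic stem cells were turned towards primitive endoderm (PrE). The carriers were all genes of the Slc2a, Slc16a, Slc7a, Slc38a, Slc39a and Slc30a families, taken by symbol from the table of all genes, which gave 76 of 54233 entries. The cells were the KH2 line (strain given as C57BL/6) carrying a TRE:GATA6-DsRed2 transgene, from which doxycycline (Dox) switches on GATA6, and bulk mRNA was sequenced in 32 samples, 4 at each of 0, 2, 4, 8, 16, 24, 48 and 96 h. The 0 h cells were kept in 2i medium with LIF and received no Dox. The 2, 4 and 8 h cells were in serum medium with LIF and 1 µg/ml Dox. The 16, 24, 48 and 96 h cells had 12 h of Dox in the same serum medium and were then kept in it without Dox. All cells carried the transgene and all media held LIF. The step from 0 h to any later time therefore joined a change of medium with the induction of GATA6, and these cannot be told apart in any comparison with 0 h. The methods list different base media for the 2i and serum cultures. Serum, pyruvate and nonessential amino acids are listed as supplements of the serum medium only. The inhibitors PD0325901 and CHIR and the supplements N2 and B27 are listed for 2i only. What the base media themselves held was not compared.

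Solute carriers are membrane proteins that move small molecules between the medium, the cytosol and the organelles. Slc2a genes encode facilitative glucose carriers, Slc16a genes encode proton-coupled carriers of lactate and pyruvate and a few relatives with other cargo, and Slc7a and Slc38a genes encode amino acid carriers, some of which work as a pair with a glycoprotein partner. Slc39a (ZIP) proteins bring zinc into the cytosol and Slc30a (ZnT) proteins take it out, either across the plasma membrane or into vesicles.

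The libraries held 3190108 to 12301732 reads assigned to genes, with a median of 8870662.5. Gata6 was listed at normalized counts of 0, 0.679, 0.806 and 0 in the 4 samples at 0 h. It stood at 11.4, 14.3, 16.4 and 17.2 at 2 h and at 328, 329, 351 and 376 at 8 h, without overlap. Reads of the transgene and of the cell's own gene cannot be told apart there. All 8 PrE markers passed a 4-fold rise at 8, 48 and 96 h against 0 h. Their summed level was 628 to 898 at 0 h, 607 to 725 at 2 h, 105417 to 193523 at 48 h and 199306 to 275693 at 96 h. Of 7 embryonic stem cell markers, 5 had fallen at least 4-fold at 48 h and all 7 at 96 h, with sums of 34903 to 40727 at 0 h and 2636 to 3367 at 96 h. Markers of other cell types had low sums, of 104 to 400 for 5 trophectoderm genes, 5.32 to 451 for 4 mesoderm genes and 0 to 47.2 for 3 neural genes over the 32 samples. Of the trophectoderm genes 4 were tested, and Hand1 and Gata3 rose at least 4-fold at both 2 h and 48 h against 0 h. At 2 h Cdx2 rose and Eomes fell at least 2-fold. Only 2 mesoderm genes and 1 neural gene were tested. Kdr rose by 1.51 on the log2 scale at 48 h and 3.07 at 96 h against 0 h. T and the neural gene Sox1 fell at least 4-fold at both times. At 0 h the mesoderm sum was 451 and 446 in replicates 1 and 2 but 112 and 100 in replicates 3 and 4. Replicates 1 and 2 resembled each other more than they resembled replicates 3 and 4 at every time point. The labels do not say what the members of such a set share. Bulk RNA cannot tell fewer cells of a type from less RNA per cell, and the study states that replicate experiments were independent without saying how cultures were divided, so p-values cover only the spread between these samples.

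Of the 76 carriers, 51 were detected, meaning a mean of at least 5 on the deposited log2 scale (a normalized count of 26.3) at some time point, and 56 passed the filter for testing (a normalized count of 10 or more in 4 or more samples). A carrier can pass that filter through the time point at which it is high, so counts over the 56 describe tested carriers and not all 76. Detected members numbered 12 of 14 in Slc39a, 9 of 10 in Slc30a, 9 of 15 in Slc7a, 9 of 14 in Slc16a, 8 of 11 in Slc38a and 4 of 12 in Slc2a. The 25 carriers that were not detected were Slc2a2, Slc2a4, Slc2a5, Slc2a6, Slc2a9, Slc2a10, Slc2a12, Slc2a13, Slc16a5, Slc16a7, Slc16a8, Slc16a11, Slc16a12, Slc7a4, Slc7a10, Slc7a12, Slc7a13, Slc7a14, Slc7a15, Slc38a3, Slc38a8, Slc38a11, Slc39a5, Slc39a12 and Slc30a8. The mean of 17 detected carriers was highest at 96 h and that of 15 at 48 h, while 6 had their highest mean at 0 h and the other 13 at 2 to 24 h. The lowest mean was at 0 h for 13 detected carriers, at 2 h for 12 and at 96 h for 11.

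Fewer carriers had changed at 2 or 8 h than at 48 or 96 h. A carrier is said here to rise or fall where it changed at least 2-fold at a false discovery rate under 0.1 over 15227 genes. The 4-fold size of change that the study required is given beside it, here on limma fold changes. At 2 h against 0 h, 4 tested carriers rose (5.86% of all tested genes did) and 7 fell (4.18%). With total-read scaling the split at 2 h became 1 risen and 9 fallen, and the number risen was 2, 2 and 1 without 0 h replicate 2, 3 or 4. By the 4-fold threshold limma called 0 risen (2.0% of all genes) and 1 fallen (0.348%). The count of 0 was also reached at an unadjusted p under 0.05 and by limma-voom on whole reads, and the fallen carrier was lost without 2 h replicate 2. At 8 h against 0 h, 8 rose (9.04%) and 6 fell (5.58%), of which 1 (3.4%) and 2 (1.31%) passed 4-fold, the former 2 without 0 h replicate 1 or 2. At 48 h against 0 h, 19 of 56 rose (18.1%) and 10 fell (15.6%), with 9 (8.48%) and 6 (7.09%) past 4-fold. At 96 h against 0 h, 22 rose (19.9%) and 14 fell (20.0%), with 8 (9.28%) and 9 (10.3%) past 4-fold.

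Comparisons among cells in the same serum medium gave related counts. The 2 and 8 h cells had been in it for only that long, while the 48 h cells no longer received Dox. Time in serum and time since induction therefore rose together and cannot be told apart in these comparisons. At 48 h against 2 h, 25 rose (18.9% of all genes) and 9 fell (16.7%), with 7 (8.5%) and 4 (7.65%) past 4-fold. At 48 h against 8 h, a comparison added after the values were seen, 19 rose (15.1%) and 10 fell (15.7%), with 4 (5.85%) and 6 (6.83%) past 4-fold. From 48 h to 96 h, 3 rose (5.46%) and 13 fell (9.88%), with 1 (1.3%) and 5 (2.4%) past 4-fold. The median log2 change over the 56 carriers was 0.54 at 48 h against 0 h, 0.79 at 48 h against 2 h and 0.51 at 96 h against 0 h, where the medians over all tested genes were -0.02, -0.03 and -0.03. At 2 h against 0 h the median was -0.04, against -0.03 over all genes. It was -0.11 with Slc39a8, at the counting floor, set to its bound of at least 0.511-fold, which allows a rise or a fall. At 8 h the median was 0.20 against 0.01, or 0.19 with carriers at the floor set to their bounds. From 48 to 96 h it was -0.06 against 0. As shares of the 56, to be read against the shares of all genes beside the counts, 7.14% had risen 2-fold by 2 h, 14.3% by 8 h, 33.9% by 48 h, 39.3% by 96 h, each against 0 h, while 12.5%, 10.7%, 17.9% and 25.0% had fallen. From 2 to 48 h 44.6% rose and 16.1% fell, from 8 to 48 h 33.9% rose and 17.9% fell, and from 48 to 96 h 5.36% rose and 23.2% fell. The share that rose was thus close to that of all genes at 2 h and from 48 to 96 h, and the share that fell was close to it at 48 h against 0, 2 and 8 h. These comparisons share the 0 h, 2 h or 48 h samples with one another.

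**Figure D1:**
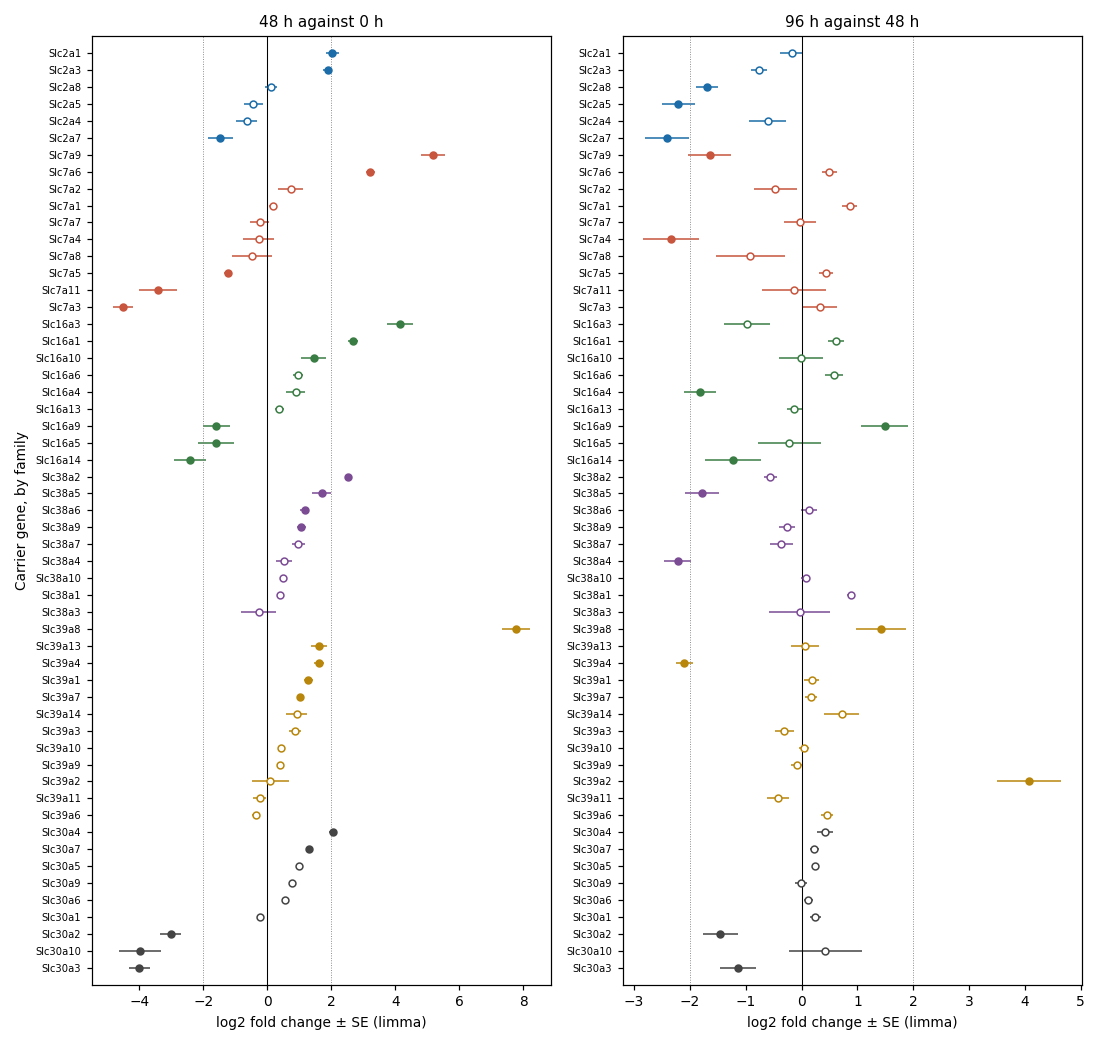
Log2 fold change with its standard error (horizontal axis) of 55 of the 56 tested carriers (vertical axis, coloured by family and sorted within it) at 48 h against 0 h on the left and at 96 h against 48 h on the right. Filled points passed the false discovery rate and 2-fold thresholds, dotted lines mark 4-fold, and the points far from 0 on the left include Slc39a8 and Slc7a9 to the right and Slc7a3 to the left.

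The main glucose and lactate carriers rose, and the rise was larger at 48 h than at 8 h. Slc2a3 (GLUT3), a high-affinity glucose carrier of stem cells and neurons, was the most abundant of all carriers per kb of exon at both ends of the course, with a mean of 1123 normalized counts per kb at 0 h and 2421 at 96 h. It held 85.6% to 91.2% of the summed Slc2a counts at every time point. Its normalized counts were 6299, 7077, 9313 and 9859 at 0 h and 30540, 31918, 27505 and 28662 at 48 h. All 48 h samples lay above all 0 h samples, with a log2 fold change of 1.89 ± 0.14 (SE, adjusted p = 4.3e-13). The 96 h samples, at 15728, 15869, 19577 and 18999, lay between those of 0 and 48 h, and the rise against 0 h of 1.13 on the log2 scale came to 0.93 with upper-quartile and 0.86 with total-read scaling, short of 2-fold. Slc2a1 (GLUT1), the widely expressed basal glucose carrier, stood at 962, 937, 679 and 674 at 0 h, then 1989, 1972, 1509 and 1440 at 2 h and 3662, 3706, 3000 and 2838 at 48 h. It was 1 of the 4 carriers that rose at 2 h (log2 1.09 ± 0.21, adjusted p = 9.9e-05, or 0.99 with total-read scaling) and it passed 4-fold at 48 h (2.03 ± 0.21, adjusted p = 6.1e-10). The 48 h rise stayed past 2-fold but fell short of 4-fold within replicates 1 and 2 (1.96), with upper-quartile (1.93) and total-read scaling (1.90), and without 0 h replicate 3 or 4 (1.95 each) or 48 h replicate 1 (1.98) or 2 (1.97). The groups at 0, 2 and 48 h did not overlap.

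Slc2a7 (GLUT7), a low-abundance hexose carrier known mainly from intestine, went the other way. It stood at 19.3, 17.7, 36.3 and 32.1 at 0 h, then 9.42, 9.42, 4.4 and 12.4 at 48 h and 2.12, 2.1, 0 and 0 at 96 h. At most 2 reads were counted in any 96 h library, so only a bound can be given. With the lowest group set to 3 reads in each library (the floor used for every bound here), it was at least 7.0-fold lower than at 0 h. The fall at 48 h had a log2 change of -1.47 ± 0.39 (adjusted p = 0.0015), and within replicates 1 and 2 alone it was -0.90 and short of 2-fold.

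Slc16a1 (MCT1), which moves lactate and pyruvate in either direction, stood at 1219, 1093, 733 and 684 at 0 h, then 1293, 1325, 977 and 1029 at 8 h, then 6215, 5894, 5362 and 5744 at 48 h and 8716, 8701, 8790 and 9392 at 96 h. Every 48 h sample lay above every sample taken at 24 h or before, and every 96 h sample above those. The log2 change was 2.68 ± 0.15 at 48 h against 0 h (adjusted p = 7.8e-16) and 3.30 ± 0.15 at 96 h (adjusted p = 3e-18). Its share of the summed Slc16a counts was 60.8% at 0 h and 86.6% at 96 h. Slc16a3 (MCT4), the lactate exporter of glycolytic cells, was far lower, at 55.2, 51.6, 19.3 and 30.2 at 0 h, then 504, 553, 195 and 157 at 24 h, and 826, 903, 501 and 489 at 48 h. It rose with a log2 change of 4.15 ± 0.42 (adjusted p = 3.8e-10) at 48 h. At 24 and 48 h its level in replicates 1 and 2 was well above that in replicates 3 and 4, but both sets lay above all 0 h samples. At 96 h the samples stood at 332, 328, 339 and 332, and the change from 48 h (-0.97 ± 0.42, adjusted p = 0.054) missed 2-fold.

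MCT1 and MCT4 reach the membrane with a glycoprotein partner, basigin (Bsg) or embigin (Emb). Bsg stood at 3324, 2873, 2899 and 2914 at 0 h and 7513, 7083, 7129 and 6752 at 48 h (log2 1.25 ± 0.05, adjusted p = 2.7e-19). Emb stood at 493, 459, 297 and 361 at 0 h and 4249, 4042, 4542 and 4720 at 48 h (3.47 ± 0.19, adjusted p = 4.7e-16), then at 2093, 2135, 1958 and 2146 at 96 h (-1.07 against 48 h). Both partners and both carriers thus rose at 48 h without overlap between the groups.

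**Figure D2:**
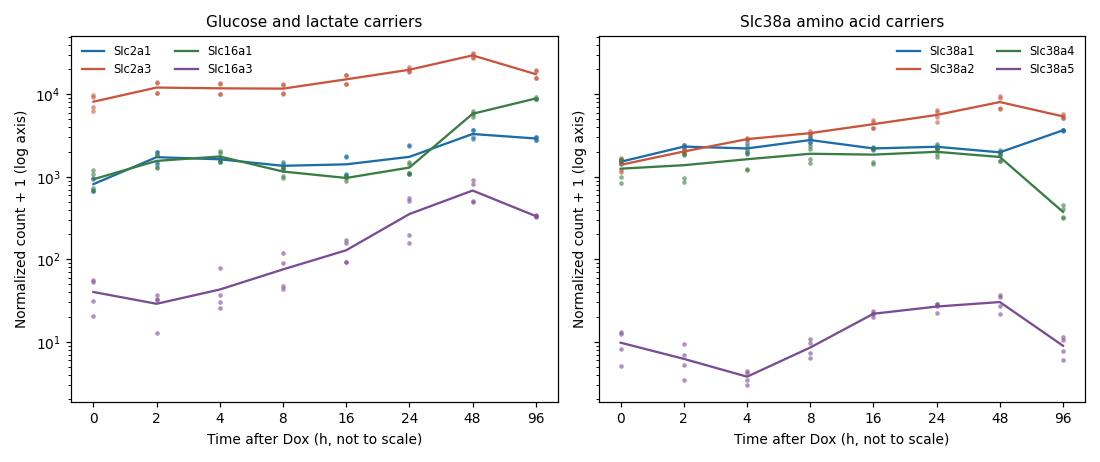
Normalized count plus 1 (log axis) against time after Dox (h, not to scale) for the glucose and lactate carriers on the left and Slc38a amino acid carriers on the right, with 1 point per sample and a line through the mean of 4. Slc2a3 had the highest mean throughout, Slc16a1 and Slc16a3 were higher at 48 h than at 0 to 8 h, and Slc38a4 was lower at 96 h than at 48 h.

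Other Slc16a members changed at lower levels. Slc16a9, linked to carnitine, dipped and came back, at 69.0, 70.7, 138 and 130 at 0 h, then 7.07, 8.93, 29.6 and 29.6 at 8 h and 99.7, 115, 84.1 and 68.1 at 96 h. The fall at 8 h had a log2 change of -2.56 ± 0.43 (adjusted p = 1.4e-05), and the rise from 48 to 96 h one of 1.49 ± 0.43 (adjusted p = 0.0048), which was 0.92 within replicates 3 and 4 and was not called when each replicate set was averaged to 1 value. The 96 h and 0 h samples overlapped.

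Slc16a14, an orphan member, stood at 11, 24.5, 65.3 and 60.4 at 0 h and at 4.71, 1.88, 7.92 and 9.29 at 48 h, and fell by 2.42 on the log2 scale (SE 0.51, adjusted p = 0.0001). Its falls at 2 h against 0 h and from 48 to 96 h ended under several single-library omissions, for example at -0.84 without 0 h replicate 3, -0.87 without 0 h replicate 4, -0.99 without 2 h replicate 1 and -0.98 without 2 h replicate 2 for the former. For the latter the call ended at -0.76 without 96 h replicate 3, -1.11 without 96 h replicate 2, -1.06 without 48 h replicate 3 and -0.99 without 48 h replicate 4. Its fall from 2 to 48 h came to -0.89 without 48 h replicate 2. Slc16a4, likewise of little known cargo, fell between 48 h (40.5, 26.4, 33.4 and 37.2) and 96 h (11.7, 9.47, 10.0 and 5.67) by 1.81 on the log2 scale (SE 0.29, adjusted p = 5.2e-06), with no overlap.

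Of the Slc38a carriers of neutral amino acids, Slc38a2 (SNAT2) had the largest rise at 48 h against 0 h. SNAT2 takes up glutamine, alanine and other small neutral amino acids with sodium and is known for its induction when amino acids are short. Its normalized counts were 1575, 1669, 1133 and 1203 at 0 h, then 3213, 3274, 3407 and 3627 at 8 h, then 6621, 6817, 9128 and 9663 at 48 h and 5215, 5094, 5828 and 5450 at 96 h. The groups at 0, 8 and 48 h did not overlap, with log2 changes against 0 h of 1.29 ± 0.12 (adjusted p = 2.4e-10) at 8 h and 2.53 ± 0.12 (adjusted p = 8e-18) at 48 h. Within replicates 1 and 2 the 8 h value was 1.00, just under 2-fold.

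Slc38a4 (SNAT4), an imprinted carrier of neutral and cationic amino acids, fell after 48 h. Its counts were 834, 980, 1579 and 1619 at 0 h, then 1856, 1986, 1537 and 1568 at 48 h and 403, 452, 316 and 322 at 96 h. The 0 and 48 h samples overlapped, and all 96 h samples lay below both. The change from 48 to 96 h was -2.22 ± 0.24 on the log2 scale (adjusted p = 9.9e-09). Slc38a5 (SNAT5), a glutamine and glycine carrier, was near the detection limit but changed in both directions. It stood at 4.16, 8.3, 5.86 and 2.46 at 2 h, then 35.8, 26.4, 34.3 and 20.6 at 48 h and 9.55, 10.5, 5.02 and 6.62 at 96 h, with log2 changes of 2.35 ± 0.30 (adjusted p = 5e-08) and then -1.78 ± 0.30 (adjusted p = 1.6e-05). Slc38a1 (SNAT1), named after its values were seen, lay at 1426 to 1647 at 0 h and 3556 to 3736 at 96 h (1.27 ± 0.07, adjusted p = 1.2e-15).

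The cationic carriers of the Slc7a family parted. Slc7a3 (CAT3), which takes up arginine and lysine, ranked behind only Slc2a3 and Slc7a5 per kb at 0 h, with a mean of 480 counts per kb. It stood at 2607, 2337, 1204 and 1120 at 0 h, then 2806, 2890, 1911 and 1893 at 2 h, then 1390, 1427, 1024 and 1062 at 8 h and 65.0, 62.2, 81.8 and 85.7 at 48 h. The 48 h samples lay far below all earlier ones, with a log2 change of -4.52 ± 0.31 against 0 h (adjusted p = 8.3e-14) and -4.98 ± 0.31 against 2 h (adjusted p = 8.2e-15). Slc7a1 (CAT1), the widespread arginine carrier, named here after its values were seen, had its highest mean at 8 h, with 3517, 3339, 4260 and 4326 against 1540, 1945, 1596 and 1775 at 0 h (1.17 ± 0.13, adjusted p = 1.6e-08, and 0.98 within replicates 1 and 2, just under 2-fold). At 48 h it was back at 1589, 1711, 2211 and 2278, overlapping the 0 h samples, and at 96 h it stood at 3085 to 3951. Slc7a2 (CAT2), a low-level relative, stood at 16.6, 21.7, 39.5 and 28.3 at 0 h, then 6.23, 3.02, 11.7 and 10.7 at 2 h and 37.7, 37.7, 38.7 and 59.9 at 48 h. It fell at 2 h (-1.69 ± 0.39, adjusted p = 0.00089) and rose from 2 to 48 h (2.43 ± 0.39, adjusted p = 2.4e-06).

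**Figure D3:**
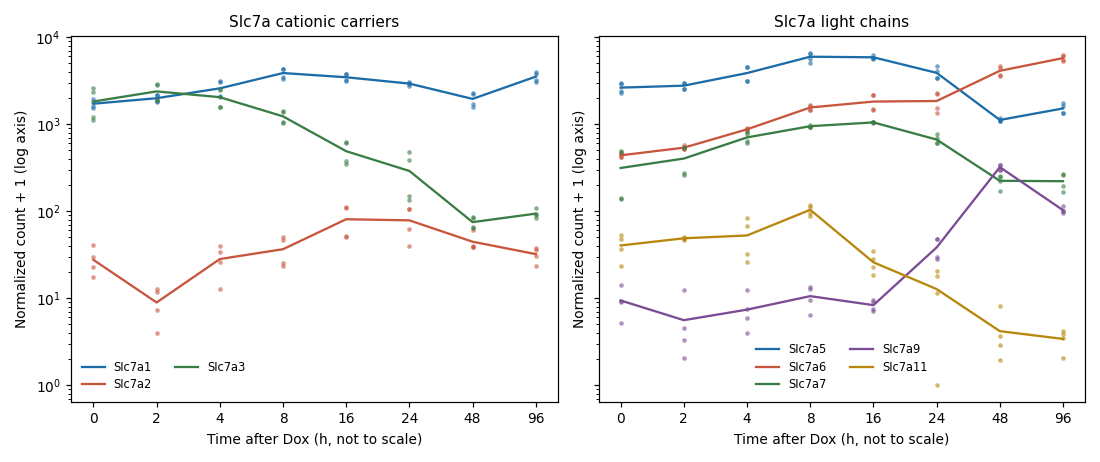
Normalized count plus 1 (log axis) against time after Dox (h, not to scale) for Slc7a cationic carriers on the left and Slc7a light chains on the right, with 1 point per sample and a line through the mean of 4. Slc7a3 was lower at 48 h than at 0 to 8 h, Slc7a5, Slc7a7 and Slc7a11 had their highest means at 8 or 16 h, and Slc7a6 and Slc7a9 were higher at 48 and 96 h than at 8 h.

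Most of the other Slc7a members are light chains that pair with the heavy chain Slc3a2 (4F2hc). Slc7a5 (LAT1), which brings in leucine and other large neutral amino acids, stood at 2912, 2927, 2271 and 2382 at 0 h, then 5637, 5076, 6608 and 6472 at 8 h, then 1092, 1106, 1161 and 1098 at 48 h and 1329, 1356, 1762 and 1604 at 96 h. It rose at 8 h (1.18 ± 0.12, adjusted p = 4.6e-09, and 0.87 within replicates 1 and 2) and then fell (-2.41 ± 0.12 at 48 h against 8 h, adjusted p = 1.8e-16). The 48 h samples lay below all 0 h samples as well. Slc7a6 (y+LAT2), which exchanges cationic for neutral amino acids, rose over the same interval. It stood at 414, 458, 415 and 459 at 0 h, then 1457, 1456, 1615 and 1674 at 8 h, then 3659, 3574, 4461 and 4684 at 48 h and 5463, 5302, 6156 and 6020 at 96 h. The 4 groups did not overlap, and the log2 change against 0 h was 1.83 ± 0.13 at 8 h, 3.22 ± 0.13 at 48 h (adjusted p = 6e-19) and 3.71 ± 0.13 at 96 h (adjusted p = 1.1e-20). In shares of the summed Slc7a counts, Slc7a5 held 37.0% at 0 h and 13.5% at 96 h, Slc7a6 held 6.15% and 51.0%, and Slc7a3 held 25.6% and 0.824%.

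Slc7a7 (y+LAT1), the close relative of y+LAT2, also rose at 8 h and was lower again at 48 h, unlike Slc7a6. It is named after its values were seen, stood at 478, 493, 136 and 142 at 0 h, then 977, 936, 936 and 930 at 8 h and 244, 254, 218 and 171 at 48 h, and fell from 8 to 48 h by 2.1 on the log2 scale (SE 0.29, adjusted p = 2.6e-07). Its change from 0 to 8 h was 1.86 ± 0.29 (adjusted p = 5.5e-06), at 0.98 and short of 2-fold within replicates 1 and 2 and at 2.74 within replicates 3 and 4, with 0 h levels that differed between the replicate sets as the mesoderm sum did, whose part in it was not tested. The heavy chain Slc3a2 stood at 2788, 2480, 2233 and 2157 at 0 h, then 3808, 3400, 4387 and 4203 at 8 h and 1666, 1713, 1926 and 1856 at 48 h, a fall of 1.14 from 8 to 48 h (SE 0.11, adjusted p = 1.4e-10). Its change from 0 to 8 h (0.71 ± 0.11) was under 2-fold. At 96 h, when Slc7a6 was highest, Slc3a2 stood at 2226, 2189, 2866 and 2749.

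Slc7a11 (xCT), the cystine importer that pairs with the same heavy chain, stood at 52.4, 46.2, 22.6 and 35.9 at 0 h, then 95.1, 85.7, 117 and 112 at 8 h, then 0.942, 1.88, 2.64 and 7.22 at 48 h and 3.18, 1.05, 2.51 and 2.84 at 96 h. All 8 h samples lay above and all 48 h samples below those at 0 h. The rise at 8 h was 1.42 ± 0.58 (adjusted p = 0.049). Its call was lost without 0 h replicate 3 (1.18) and within replicates 1 and 2 (0.86). The change from 8 to 48 h was -4.83 ± 0.58 (adjusted p = 1.8e-08), and at 96 h, with at most 3 reads in a library, it was at least 10.4-fold lower than at 0 h. Its promoter is shown since xCT is a known target of ATF4, the factor of the amino acid response, whose target genes are given with their values next. The stretch lies upstream of the start of Slc7a11 in GRCm38.p6 (chr3:50443615-50443863, minus strand, RefSeq), and capitals mark the 2 matches to TGATGNAA, the letters searched for ATF4 elements, on either strand.
Slc7a11: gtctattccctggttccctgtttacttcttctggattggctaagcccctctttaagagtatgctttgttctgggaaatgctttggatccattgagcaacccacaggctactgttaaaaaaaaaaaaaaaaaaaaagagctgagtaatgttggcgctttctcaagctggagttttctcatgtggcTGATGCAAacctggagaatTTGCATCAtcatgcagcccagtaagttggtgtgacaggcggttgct
In all, 3 of 72 promoter windows of carriers held this motif (4.17%), against 3.97% of 32851 windows of all genes. Windows ran from 250 bases before to 50 after a start, 57 of the 76 carriers had at least 1, and no match to this motif overlapped a match to the other motifs searched.

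Of 16 genes of the amino acid response, all tested, 3 fell at least 4-fold (7.09% of all tested genes did) and 8 at least 2-fold (15.6%) at 48 h against 0 h, while 1 rose 2-fold (18.1%). Those past 4-fold were Trib3 (-3.14 ± 0.29), a pseudokinase, Chac1 (-3.11 ± 0.42), which degrades glutathione, and Mthfd2 (-2.34 ± 0.15), a mitochondrial folate enzyme. Trib3 stood at 780, 772, 455 and 457 at 0 h and 82.0, 88.6, 47.5 and 56.8 at 48 h. Atf4 itself fell by 1.03 (SE 0.12) and Asns, asparagine synthetase, by 1.67 (SE 0.10). The median over the 16 genes was -0.92, against -0.02 over all tested genes. At 8 h against 0 h, when Slc7a5, Slc7a11 and Slc38a2 had risen, limma called 0 of the 16 in either direction at 2-fold (9.04% of all genes rose and 5.58% fell), as did limma-voom on whole reads, and 0 changed 2-fold at an unadjusted p under 0.05, with a median of -0.04. Smaller changes were present, with 5 of the 16 at an unadjusted p under 0.05 by limma and 6 by limma-voom. By limma, Asns (-0.59 ± 0.10), Atf5 (-0.74 ± 0.19), Phgdh (-0.46 ± 0.13) and Shmt2 (-0.41 ± 0.10) were lower at 8 h. Psat1 was higher (0.20 ± 0.09), and all of these had an adjusted p under 0.1. At 96 h against 0 h, 6 fell (20.0% of all genes) and 1 rose (19.9%), Atf3, a stress-induced factor, by 3.52 on the log2 scale (SE 0.35), and the median was -0.55. Slc38a2 is often counted among such targets and rose at 48 h, while Slc7a11, Slc7a5 and Slc7a3 fell.

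Slc7a9 is the light chain of the cystine and dibasic amino acid carrier of kidney and intestine, whose heavy chain is Slc3a1. It stood at 4.14, 8.15, 8.06 and 13.2 at 0 h, then 28.8, 26.9, 46.7 and 46.5 at 24 h, then 298, 300, 341 and 339 at 48 h and 98.7, 93.6, 114 and 99.3 at 96 h. Every 48 h sample lay above every other, with a log2 change of 5.18 ± 0.38 against 0 h (adjusted p = 4.5e-13) and of -1.65 ± 0.38 from 48 to 96 h (adjusted p = 0.00072). The heavy chain Slc3a1 did not pass the filter, with at most 7 reads in any library and a mean of at most 2.25. The fall of Slc7a9 at 2 h (-1.0) was within the noise of few reads and ended, for example, at -0.77 without 0 h replicate 4, -0.99 without 0 h replicate 2 or 3, -0.63 without 2 h replicate 1 and -0.86 without 2 h replicate 2. A stretch that ends 55 bases before a RefSeq start of Slc7a9 (chr7:35448842-35449036, plus strand, GRCm38.p6) is shown since the cells were induced with a GATA factor, with capitals at the 2 matches to AGATAA or its reverse complement. In the GENCODE annotation it lies in the first intron of a transcript with an earlier start. The stretch was taken from the window of this gene with the most matches, and the window of another RefSeq start held 0.
Slc7a9: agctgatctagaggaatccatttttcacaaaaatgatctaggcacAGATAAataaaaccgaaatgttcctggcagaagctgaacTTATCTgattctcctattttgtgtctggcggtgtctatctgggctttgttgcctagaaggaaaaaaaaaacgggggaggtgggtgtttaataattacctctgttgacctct
This motif was in 7 of 72 windows of carriers (9.72%) and in 11.2% of all windows. A match is a string of letters and says nothing of binding.

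Other carriers of amino acids and glucose were taken from a fixed list of 14, of which 13 were tested. Among the tested genes is the heavy chain Slc3a2, a partner of carriers that is also described above. At 48 h against 0 h, 4 rose (18.1% of all tested genes did) and 3 fell (15.6%), with 3 (8.48%) and 1 (7.09%) past 4-fold. The aspartate and glutamate carrier Slc1a3 rose by 3.10 on the log2 scale (SE 0.20), from 35.9, 44.2, 26.6 and 18.9 to 253, 262, 271 and 270. Slc43a3, a purine base carrier, changed by 3.07 ± 0.57 and Slc36a4, an amino acid carrier, by 3.01 ± 0.24, while the sodium-glucose carrier Slc5a1 changed by -3.65 ± 0.55. The median over the 13 genes was 0.20, against -0.02 over all tested genes.

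Among the zinc importers, Slc39a8 showed the largest rise of all tested carriers at 48 and 96 h against 0 h by fitted log2 change. ZIP8 brings in zinc, manganese and other divalent metals. No 0 h library held more than 2 reads of it, at normalized counts of 2.76, 0.679, 0.806 and 0. It stood at 6.96, 3.26, 10.6 and 11.2 at 16 h, then 50.4, 55.1, 77.2 and 75.0 at 24 h, then 364, 373, 413 and 449 at 48 h and 994, 936, 1156 and 1218 at 96 h. These 4 groups followed each other without overlap. It was at least 70.6-fold higher at 48 h and at least 190-fold higher at 96 h than at 0 h, and rose again from 48 to 96 h (1.42 ± 0.45, adjusted p = 0.0094). Its share of the summed Slc39a counts went from 0.0371% at 0 h to 20.2% at 96 h. At 2 h it passed the threshold (1.03 ± 0.45, adjusted p = 0.067) on at most 4 reads a library, and lost it, for example, at 0.74 without 0 h replicate 4 and 0.88 without 2 h replicate 1, as it did without 0 h replicate 2 (0.99) or 3 (1.03) and without 2 h replicate 3 (0.95).

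A stretch of the first intron of Slc39a8, just upstream of a second annotated start (chr3:135825532-135825653, plus strand, GRCm38.p6, RefSeq), is shown since it holds both a GATA and a metal response motif. It was taken from the window of this gene with the most matches. The window at the first annotated start of Slc39a8 held 0 matches to either motif. Capitals mark TTATCT, the reverse complement of AGATAA, and GGGTGCA, a match to the reverse complement of TGCACNC. Metal response motifs, the sites of the zinc sensor MTF1, were searched as TGCACNC or TGCGCNC on both strands.
Slc39a8: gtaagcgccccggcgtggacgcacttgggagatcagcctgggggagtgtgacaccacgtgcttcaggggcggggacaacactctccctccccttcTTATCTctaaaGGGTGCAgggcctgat
They were in 23 of 72 windows of carriers (31.9%) and in 25.7% of all windows.

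Slc39a4 (ZIP4), the zinc importer of intestine and visceral endoderm, rose and then fell. It stood at 264, 258, 472 and 444 at 0 h, then 958, 972, 1184 and 1130 at 48 h and 273, 286, 235 and 198 at 96 h. The 48 h samples lay above all others, and the 0 and 96 h samples overlapped. The log2 change was 1.61 ± 0.15 at 48 h against 0 h (adjusted p = 9.1e-11) and -2.1 ± 0.15 from 48 to 96 h (adjusted p = 2.1e-12), or -1.79 and short of 4-fold within replicates 1 and 2. Slc39a2 (ZIP2), a plasma membrane importer, was near 0 up to 48 h and appeared at 96 h. Its counts were 2.83, 0, 6.16 and 15.5 at 48 h and 55.2, 63.1, 99.2 and 98.3 at 96 h, with no overlap and a log2 change of 4.07 ± 0.57 (adjusted p = 9.2e-07), the only carrier past a 4-fold rise in that interval. It shares 151 bp (4.38%) of its exons with Mettl17 on the same strand, and Mettl17 changed by 0.60 over the same interval.

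Slc39a14 (ZIP14), a zinc, iron and manganese importer, differed between replicate sets at the start. It stood at 450 and 567 in replicates 1 and 2 and at 94.3 and 113 in replicates 3 and 4 at 0 h, at 626, 698, 462 and 505 at 2 h and at 643, 593, 867 and 776 at 96 h. Over all 4 replicates its log2 change was 1.30 ± 0.32 at 2 h, 1.09 ± 0.32 at 8 h and 1.63 ± 0.32 at 96 h against 0 h. Within replicates 1 and 2 these were 0.39, -0.06 and 0.29, and within replicates 3 and 4 they were 2.21, 2.23 and 2.98. The mesoderm marker sum at 0 h was split the same way between the sets, and its part in the result was not tested. Without 0 h replicate 3 the 2 h and 8 h values were 0.88 and 0.66, and without 0 h replicate 4 they were 0.96 and 0.75, all short of a call. Slc39a1 (ZIP1), a widely expressed importer, stood at 283, 254, 305 and 349 at 0 h and at 644, 646, 795 and 822 at 48 h (1.28 ± 0.13, adjusted p = 7.2e-10), with no overlap.

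**Figure D4:**
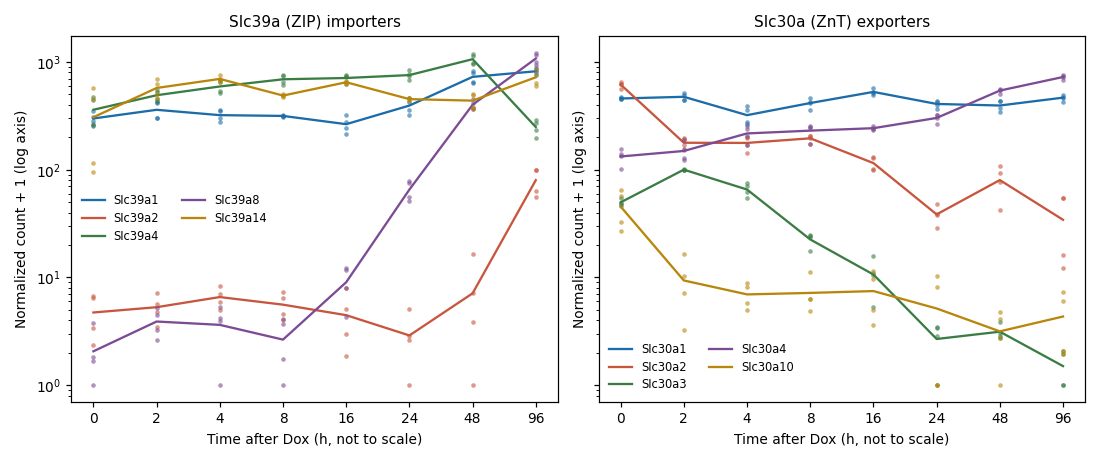
Normalized count plus 1 (log axis) against time after Dox (h, not to scale) for zinc importers of the Slc39a family on the left and exporters of the Slc30a family on the right, with 1 point per sample and a line through the mean of 4. At 96 h, Slc39a8, Slc39a2 and Slc30a4 were higher and Slc30a2, Slc30a3 and Slc30a10 lower than at 0 h.

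Of 9 tested exporters, 3 fell at least 4-fold at 48 h against 0 h (7.09% of all tested genes did) and 1 rose (8.48%). At 96 h against 0 h, 3 fell (10.3%) and 1 rose (9.28%). Slc30a2 (ZnT2), which loads zinc into vesicles and milk, was among the carriers that fell at 2 h. It stood at 656, 624, 559 and 627 at 0 h, then 153, 196, 191 and 167 at 2 h, then 205, 196, 205 and 173 at 8 h, then 91.4, 107, 41.3 and 76.4 at 48 h and 53.1, 53.6, 15.1 and 11.3 at 96 h. All later samples lay below all 0 h samples, with a log2 change of -1.80 ± 0.32 at 2 h (adjusted p = 3.3e-05) and -4.48 ± 0.32 at 96 h (adjusted p = 9.6e-14). Its share of the summed Slc30a counts was 23.4% at 0 h and 0.807% at 96 h. Within replicates 1 and 2 the fall from 2 to 48 h was -0.80 and that from 48 to 96 h -0.88, both short of 2-fold, and the former was -0.95 without 48 h replicate 3.

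Slc30a3 (ZnT3), known for filling synaptic vesicles with zinc, went up before it went down. It stood at 48.3, 45.5, 54.0 and 47.2 at 0 h, then 99.7, 98.9, 98.5 and 99.3 at 2 h, then 23.6, 23.2, 22.6 and 16.7 at 8 h and 2.83, 1.88, 1.76 and 2.06 at 48 h. The groups at 0, 2, 8 and 48 h did not overlap. The rise at 2 h sat at the 2-fold line (1.01 ± 0.32, adjusted p = 0.014), at 0.96 with upper-quartile and 0.91 with total-read scaling, at 0.98 without 0 h replicate 2 and just under 1 without 0 h replicate 4. The fall at 8 h was -1.15 ± 0.32 (adjusted p = 0.0047) and -0.97 within replicates 1 and 2. With at most 3 reads in any 48 h library, it was at least 8.63-fold lower at 48 h than at 0 h.

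Slc30a10 (ZnT10), a manganese exporter of this family, stood at 26.2, 31.9, 55.6 and 64.2 at 0 h, then 6.23, 2.26, 9.38 and 15.6 at 2 h and 0, 3.77, 1.76 and 3.1 at 48 h. It was the only carrier past a 4-fold fall at 2 h (-2.42 ± 0.66, adjusted p = 0.0041), and, with at most 3 reads in a 48 h library, it was at least 7.87-fold lower at 48 h than at 0 h. The call at 2 h stayed past 2-fold in every single-library omission but missed 4-fold without 2 h replicate 2. The stretch upstream of its start (chr1:185454598-185454847, plus strand, GRCm38.p6, RefSeq) is shown for its 3 matches to the metal response motif, in capitals, of which 2 overlap each other on opposite strands.
Slc30a10: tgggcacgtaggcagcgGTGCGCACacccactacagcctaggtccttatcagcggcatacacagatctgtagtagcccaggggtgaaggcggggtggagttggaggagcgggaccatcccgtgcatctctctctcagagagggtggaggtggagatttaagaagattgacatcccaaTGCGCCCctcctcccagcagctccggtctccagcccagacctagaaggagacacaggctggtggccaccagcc
Slc30a10 shares exon bases with Gm2061 on the opposite strand, and the strand setting of the counting is not given in the sources used here.

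Slc30a4 (ZnT4), a vesicular zinc carrier, rose instead. It stood at 133, 99.9, 139 and 155 at 0 h, then 552, 554, 502 and 558 at 48 h and 746, 751, 726 and 676 at 96 h, without overlap, at log2 changes against 0 h of 2.05 ± 0.14 (adjusted p = 4e-14) and 2.47 ± 0.14 (adjusted p = 2.8e-16). The 48 h value was past 2-fold but short of 4-fold within replicates 3 and 4 (1.84), with upper-quartile (1.95) and total-read scaling (1.91) and without 0 h replicate 2 (1.92). Slc30a5 (ZnT5), which supplies zinc to enzymes of the secretory pathway, stood at 569, 578, 517 and 523 at 0 h and at 1314, 1342, 1288 and 1219 at 96 h (1.24 ± 0.06, adjusted p = 3.2e-17, or 0.97 with total-read scaling). Slc30a1 (ZnT1), the plasma membrane zinc exporter and a classical MTF1 target, is named after its values were seen. It lay at 449 to 468 at 0 h and 428 to 496 at 96 h, with a log2 change of 0.02 ± 0.10 (adjusted p = 0.84).

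Of 5 genes of zinc handling, 3 were tested. At 2 h against 0 h, 0 of the 3 fell 2-fold (4.18% of all tested genes did). The 2 metallothioneins, which buffer zinc in the cytosol, fell at least 4-fold at 48 h (7.09%) and at 96 h (10.3%) against 0 h. Mt1 stood at 2547, 2053, 2660 and 2544 at 0 h, then 771, 632, 817 and 726 at 8 h and 324, 346, 432 and 431 at 96 h (-2.68 ± 0.23 at 96 h against 0 h, adjusted p = 1.5e-11). Mt2 stood at 1833, 1388, 2008 and 1957 at 0 h and 190, 208, 143 and 157 at 96 h (-3.36 ± 0.29, adjusted p = 1.4e-11). Mtf1, their zinc-sensing activator, changed by -0.47 ± 0.08 at 48 h, under 2-fold.

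Per kb of exon, the order of the most abundant carriers changed over the course. At 0 h the mean normalized counts per kb were 1123 for Slc2a3, 707 for Slc7a5, 480 for Slc7a3, 294 for Slc38a4, 232 for Slc2a1 and 211 for Slc16a1. At 96 h they were 2421 for Slc2a3, 2011 for Slc16a1, 1255 for Slc7a6, 830 for Slc2a1, 611 for Slc38a2 and 408 for Slc7a5. At 0 h the samples of each carrier in this order overlapped those of the next, except those of Slc2a3 and Slc7a5, while at 96 h no neighbours overlapped. Slc7a3 and Slc38a4 left the first 6 and Slc7a6 and Slc38a2 entered them.

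The other 23 detected carriers lay outside the rule for naming, and some of them are given above. Their highest mean was 1.4 times (Slc39a9, a Golgi zinc importer) to 5.48 times (Slc16a6) their lowest. At 48 h against 0 h, 6 of them rose (18.1% of all tested genes did), namely Slc16a10, Slc30a7, Slc38a6, Slc38a9, Slc39a7 and Slc39a13. The naming rule had already taken out every detected carrier with a 4-fold change in any of its 6 comparisons. Those did not include 48 h against 8 h, where Slc7a7 passed a 4-fold fall. The count of 6 at 48 h against 0 h therefore describes a filtered set and cannot be judged against that share. Slc16a6 shares 21.5% of its exon bases with Amz2, and in all 20 of the 76 carriers share at least 50 bp of exon with another gene of the annotation used here. Slc2a5, Slc7a4 and Slc16a5 passed a 4-fold fall in at least 1 comparison without reaching the detection level, and are given without values.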

How the data were processed

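RNA was taken in 4 replicates per time point, 32 in all, and libraries were made with a stranded polyA kit. According to the submitters' processing notes, reads were handled with FastQC 0.11.8, cutadapt 2.7, HISAT2 2.1.0 and featureCounts of Subread 1.6.4 on GRCm38.p6; the strand setting of the counting is not given in the sources used here. As deposited, 1 table held log2 values that the authors had passed through a variance-stabilizing transformation. The deposited log2 values were inverted to normalized counts with the floor of the table as the value of 0, and 100% of the resulting values were whole reads after scaling, within 0.001. Values in the text are these normalized counts. Of 54233 entries, 29140 had no deposited symbol, and 29046 of those were named from a table of identifiers.

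Tests used limma 3.58.1 (lmFit and eBayes with trend, R 4.3.3) on log2(normalized count + 1) over all 32 samples, for 15227 genes with a count of 10 or more in 4 or more samples, so fold changes of low genes are understated. Calls were made at a Benjamini-Hochberg false discovery rate under 0.1 over all these genes with a change of at least 4-fold (the threshold of the study) or 2-fold. Python 3.11.15, numpy 2.4.6, pandas 2.3.3 and matplotlib 3.10.9 did the rest, and the fit was tested on simulated data. Bounds cover counting error only.

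The carriers and all gene lists (carrier partners, other amino acid and glucose carriers, amino acid response, zinc handling and cell type markers) were chosen with earlier results of these data known. Carriers are named by a rule. Within each family, these were the detected member with the highest count per kb at 0 and at 96 h, every detected member called at 4-fold in any of 6 comparisons, and the largest rise and fall at 2 h against 0 h, 48 h against 0 h and 96 h against 48 h, which gave 28, of which 1 is not reported here. Exon lengths and overlaps came from an annotation that may differ from that used for counting.

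Same-numbered samples of different time points correlated in their deviations from the group means at a mean r of 0.196 over 112 pairs (lowest -0.043). Differently numbered samples of the same set did so at 0.196, so the numbers were not taken as pairs. Samples of different sets had a mean r of -0.196 over 224 pairs. The main fit held no term for the set, so its p-values do not account for what the samples of a set share. No replicates were alike within sampling noise (chi-square per degree of freedom 1.59 in the median within and 11.6 between sets).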

Additional observations from a re-analysis of the deposited data

Results flagged for a closer look

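In 6 of 200 groups of 4 samples, 1 sample stood apart from the other 3, where chance gives about 1 in 20 such groups. The gap as a share of the range was 0.871 for Slc16a1 at 96 h, where replicate 4 was highest (9392), and 0.829004 for Slc7a6 at 2 h, where replicate 1 was highest (577). It was 0.954 for Slc7a2 at 48 h, where replicate 4 was highest (59.9 against 37.7 to 38.7). The low samples were replicate 4 of Slc30a3 at 8 h (0.851), and for Slc30a4 replicate 1 at 8 h (0.906, 174 against 245 to 252) and replicate 3 at 48 h (0.890, 502 against 552 to 558).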

How the results depend on the processing

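Of 119 named changes, 1 reversed under any alternative, Slc39a14 at 8 h against 0 h within replicates 1 and 2 (-0.0555), a set chosen after seeing the data. Over all alternatives a named change kept its call 2220 times and lost it 110 times, of which 42 were in single-library omissions, 14 within replicates 1 and 2 and 10 with the mean of each replicate set. Those 10 were Slc16a14 (at 2 h against 0 h, 48 h against 2 h and 96 h against 48 h), Slc16a9 (96 h against 48 h), Slc30a10 (48 h against 2 h and against 8 h), Slc39a14 and Slc7a11 (8 h against 0 h), and Slc39a8 and Slc7a9 (2 h against 0 h). The replicate block changed no call of a named change, and its count of carriers that fell 2-fold at 8 h was 7 in place of 6. With scaling by total reads the median of all genes at 96 h against 0 h moved to -0.29, and by upper quartiles to -0.22. Detected carriers were 59 with a mean normalized count of at least 5 in place of 51.

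A mean of at least 50, which tests fewer carriers, left 0 past a 4-fold fall at 2 h, 0 and 0 past a 4-fold rise and fall at 8 h, 2 and 2 past a 4-fold fall at 48 and 96 h against 0 h, 4 and 1 past a 4-fold rise and fall at 48 h against 2 h, and 0 and 2 from 48 to 96 h. For 2-fold falls it left 2 after 2 h, 2 after 8 h, 3 and 5 in the 48 and 96 h comparisons with 0 h, 3 in that of 48 with 2 h and 5 from 48 to 96 h, where 1 rose. A pseudocount of 5 gave 0 past a 4-fold fall, 2 risen and 4 fallen 2-fold at 2 h, 0 past a 4-fold rise at 8 h and 2 past a 4-fold fall from 48 to 96 h. The deposited values without inversion gave 0, 2 and 4 at 2 h and 2 from 48 to 96 h in the same places. The mean of each replicate set and the fit of only the 2 time points compared each gave 4 fallen 2-fold at 2 h, and total-read scaling 1 risen. Replicates 3 and 4 alone gave 1 and 3 past a 4-fold rise at 2 and 8 h and 9 past a 4-fold fall from 48 to 96 h. Replicates 1 and 2 alone gave 2 past a 4-fold fall at 2 h, 5 risen 2-fold at 8 h, and 2 and 3 past a 4-fold rise and fall from 48 to 96 h. For these shifts the cause was not tested.

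Leaving out each replicate in turn gave 1 to 4 risen and 5 to 8 fallen 2-fold and 0 to 1 fallen 4-fold at 2 h against 0 h, 1 to 2 risen 4-fold and 5 to 8 fallen 2-fold at 8 h, 8 to 9 risen 4-fold at 48 h, 8 to 10 risen and 9 to 10 fallen 4-fold at 96 h, 7 to 10 risen 4-fold at 48 h against 2 h and 4 to 5 fallen 4-fold from 48 to 96 h.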
